A study of Mus musculus with 9 samples.

Results

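Endothelial genes mark the cells that line blood and lymphatic vessels, and 31 of them were followed here among the 24493 genes of the expression table. They were picked by gene symbol from a list of known endothelial markers and regulators, and all 31 were in the table. The choice was made with earlier results of these data known, so counts over the 31 describe this set only. The samples were tumor cells of the mouse pancreatic line 6419c5, of strain C57BL/6, taken from late-stage tumors that had grown under the skin after implantation. A WT group was set against the knockout groups Usp22-KOA and Usp22-KOB, with 3 samples each. Usp22 encodes a deubiquitinase of the SAGA transcription complex. All 3 groups come from 1 tumor cell clone, and no treatment is labelled. The labels do not say how the groups A and B differ in making, by what means tumor cells were taken apart from the rest of the implant, or whether the samples of a group come from separate mice, so the p-values here rest on the spread among these samples alone, which may be technical.

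Values are in TPM, transcript abundances that allow for transcript length and keep no read depth. Usp22 itself averaged 55.3 TPM for WT, 9.44 for Usp22-KOA and 13.6 for Usp22-KOB, with all knockout samples between 8.46 and 14.9 and all WT samples at 54.5 or above. Between 6520 and 7234 genes of a library were listed at 0. The keratin Krt8, an epithelial gene, averaged 2495 TPM in WT, and every endothelial gene lay far below it. The defining endothelial markers Pecam1, Cdh5, Tie1 and Egfl7 were above 0 in all 9 samples. In bulk RNA of this kind, fewer cells of a type and less RNA per cell cannot be told apart.

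Endothelial cells hold their junctions together with VE-cadherin, encoded by Cdh5, and respond to VEGF-A from tumor and stromal cells through the receptor encoded by Kdr. The receptor of Flt1 binds the same ligand tightly and can act as a decoy. Sprouting tip cells carry the Notch ligand Dll4, angiopoietins act on Tek, and ETS and SOXF transcription factors keep the endothelial programme on.

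The promoters of Kdr, Flt1 and Dll4 are shown because these genes stand for the VEGF receptor, its decoy and the tip cell ligand. They were also chosen because Flt1, unlike Kdr and Dll4, was not called lower in Usp22-KOA against WT. Each line gives the 250 bases before the RefSeq start on GRCm38.p6, 5′ to 3′ on the gene's strand, and capitals mark GGAAGT, an ETS motif, or its other strand ACTTCC. Kdr lies on the minus strand at chr5:75978456-75978705, Flt1 on the minus strand at chr5:147726012-147726261 and Dll4 on the plus strand at chr2:119325534-119325783.
Dll4: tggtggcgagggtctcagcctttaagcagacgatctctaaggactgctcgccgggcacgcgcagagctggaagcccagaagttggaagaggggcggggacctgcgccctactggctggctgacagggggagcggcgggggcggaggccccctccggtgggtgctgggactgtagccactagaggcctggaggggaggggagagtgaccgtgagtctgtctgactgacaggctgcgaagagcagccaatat
Flt1: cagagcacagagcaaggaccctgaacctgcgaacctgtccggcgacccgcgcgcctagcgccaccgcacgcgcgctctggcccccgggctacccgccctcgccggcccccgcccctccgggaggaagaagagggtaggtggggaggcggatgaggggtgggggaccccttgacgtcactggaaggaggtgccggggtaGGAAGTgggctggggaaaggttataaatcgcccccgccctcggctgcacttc
Kdr: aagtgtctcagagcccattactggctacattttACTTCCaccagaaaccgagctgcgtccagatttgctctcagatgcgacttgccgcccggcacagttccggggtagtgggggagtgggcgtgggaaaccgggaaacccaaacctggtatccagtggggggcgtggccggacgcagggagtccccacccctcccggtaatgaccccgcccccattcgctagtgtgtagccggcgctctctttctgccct

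The window of Kdr held 1 match, 217 bases before the start, and that of Flt1 held 1 match, 52 bases before the start. The window of Dll4 held none. Promoters were found for 16 of the 31 genes, 22 windows in all. GGAAGT on either strand was in 27.3% of those windows and in 19.7% of the 32851 promoter windows of the whole table. The SOX motif AACAAT was in 13.6% against 9.42%, and the GATA motif AGATAA in 9.09% against 9.99%. A match describes the letters only.

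In Usp22-KOA samples nearly the whole endothelial set was low, while in Usp22-KOB samples most of it stood near WT. The mean of a gene in Usp22-KOA had a median of 22.2% of its WT mean over the 31 genes, from 6.09% for Dll4 to 869% for Tal1. It was under 50% of WT for 27 genes, under 25% for 17 and under 10% for 5. In Usp22-KOB the same median was 100.4%, from 44.5% for Clec14a to 340% for Lyve1, and 16 genes were above their WT mean. The shares of all genes past these marks are not given here, so these counts only describe the set. Tal1 and Clec14a are among 6 of the 31 that averaged under 1 TPM, where the precision of a percentage is unknown.

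All 3 Usp22-KOA values lay below all 3 WT values for 27 of the 31 genes, an outcome that 22.7% of all genes in the table showed. They lay below all Usp22-KOB values for 26 genes, against 19.0% of all genes. Tal1 alone of the 31 was above all WT values in Usp22-KOA, where 20.9% of all genes were. For Usp22-KOB against WT the values overlapped for 23 genes. They lay lower for 5 genes, beside 16.6% of all genes, and higher for 3, beside 15.7%.

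Of the 31 genes, 25 averaged 1 TPM or more over all 9 samples and entered the test. In Usp22-KOA against WT, limma called 23 of the 25 lower and 0 higher at a Benjamini-Hochberg adjusted p under 0.05. At an unadjusted p under 0.05 the count of higher genes was also 0. Of all 13843 genes tested, 26.9% were called lower and 29.4% higher in this comparison. The median difference of the 25 was -1.33 on the log2(TPM + 1) scale, beside 0.02 for all genes. Of the 25, 12 averaged under 1 TPM in Usp22-KOA and passed the filter through the other groups, and the 13 others held 11 of the calls. The 12 were Kdr, Tie1, Emcn, Cldn5, Vwf, Robo4, Ramp2, Sox18, Mmrn2, Aplnr, Esm1 and Dll4. Their adjusted p values below carry that limit.

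In Usp22-KOB against WT, 3 of the 25 were called higher (Lyve1, Ptprb and Cd34) and 3 lower (Esam, Sox17 and Aplnr), with 19 not called. Among all genes 18.7% were called higher and 18.4% lower. In Usp22-KOA against Usp22-KOB, 23 were called lower and 0 higher, and 1 gene, Flt1, was higher at an unadjusted p under 0.05. Among all genes 24.2% were called lower and 27.5% higher. The medians of the 25 were -0.06 and -1.42 in these comparisons, beside -0.0075 and 0.03 for all genes. The comparisons with WT share the 3 WT samples.

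**Figure D1:**
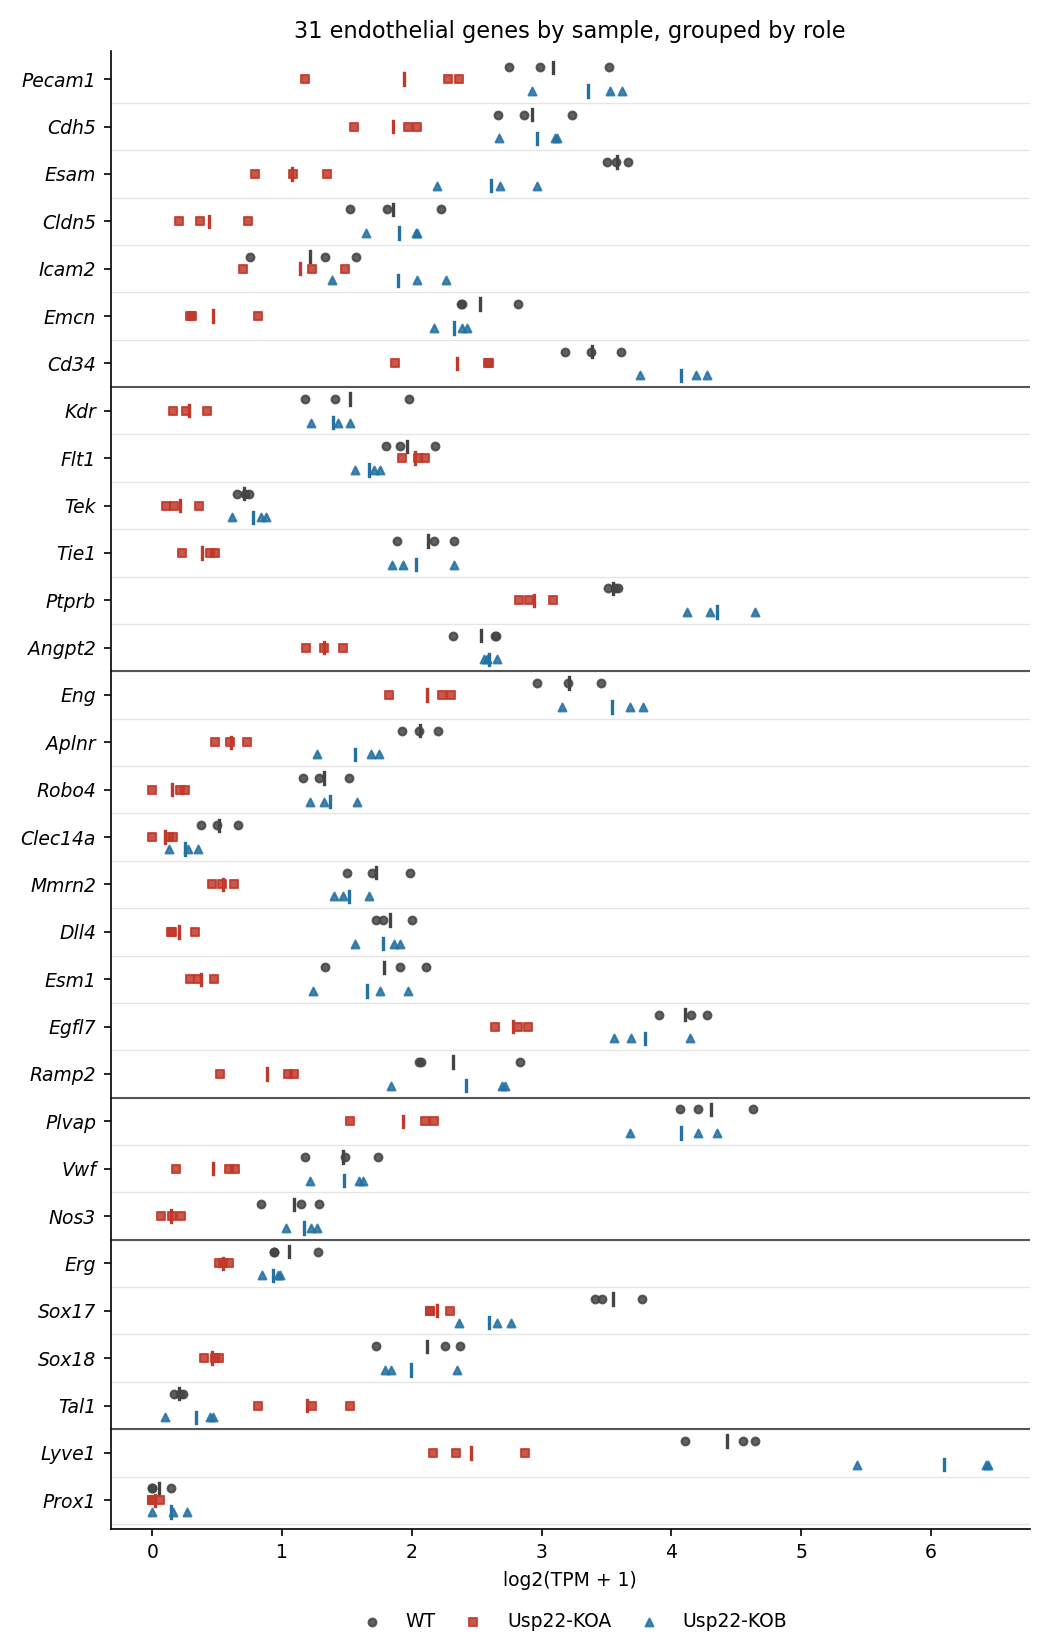
Level of each of the 31 endothelial genes in each sample, as log2(TPM + 1) on the horizontal axis; symbols are single samples of WT, Usp22-KOA and Usp22-KOB, and short bars are group means (n = 3). The Usp22-KOA squares lie to the left of the WT circles for 27 of the 31 genes, and Lyve1 is the gene whose Usp22-KOB triangles lie farthest to the right.

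Summed over the 31 genes, the level was 161.9, 150.0 and 191.9 TPM in the WT samples, 53.2, 58.8 and 39.9 for Usp22-KOA and 245.4, 242.4 and 166.5 for Usp22-KOB. The Usp22-KOA sums lay below all others. Without Lyve1 the sums were 126.0 to 169.5 TPM for WT, 36.4 to 52.5 for Usp22-KOA and 124.4 to 160.6 for Usp22-KOB, so that WT and Usp22-KOB overlapped. Within groups, single libraries ran low across the set. Sample 2 of WT was the lowest of its group for 24 of the 31 genes, sample 3 of Usp22-KOA for 21 and sample 3 of Usp22-KOB for 21. Without sample 3 of Usp22-KOA, 23 genes were still called lower against WT, and without sample 3 of Usp22-KOB, 23 were called lower in Usp22-KOA against Usp22-KOB.

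Of the 7 genes of junctions and surface adhesion, 6 fell in Usp22-KOA against WT, beside 26.9% of all genes tested. Icam2 was not called. Cdh5, which encodes VE-cadherin (GRCm38 chr8:104101625-104144511), read 6.29, 5.35 and 8.40 TPM in the WT samples, 2.91, 3.11 and 1.94 in those of Usp22-KOA and 7.70, 7.57 and 5.36 in those of Usp22-KOB. The Usp22-KOA samples lay below all others and the other groups overlapped. Its difference was -1.07 ± 0.20 (SE) on the log2(TPM + 1) scale in Usp22-KOA against WT (limma adjusted p = 0.00145) and 0.04 in Usp22-KOB against WT (limma adjusted p = 0.891). An exact permutation test of 3 against 3 samples has 20 splits and gave p = 0.1 for Cdh5 in Usp22-KOA against WT (two-sided), the smallest it allows.

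Esam, an adhesion molecule of endothelial tight junctions that platelets also carry (chr9:37528078-37538319), was lower in both knockouts. It read 10.3, 11.7 and 10.9 TPM in the WT samples, 1.12, 1.55 and 0.728 in those of Usp22-KOA and 6.79, 5.40 and 3.56 in those of Usp22-KOB. The 3 groups did not overlap at any point. The difference from WT was -2.51 ± 0.21 in Usp22-KOA (limma adjusted p = 1.1e-05) and -0.97 ± 0.21 in Usp22-KOB (limma adjusted p = 0.00638), and the difference between the knockouts, A minus B, was -1.54 ± 0.21 (limma adjusted p = 3.15e-04).

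Emcn, which encodes the surface sialomucin endomucin of capillaries and veins, stood at 4.22, 4.20 and 6.05 TPM in WT and at 0.221, 0.761 and 0.233 in Usp22-KOA. Its Usp22-KOB samples, at 4.22, 4.37 and 3.50 TPM, overlapped WT. The difference of Usp22-KOA from WT was -2.06 ± 0.19 (limma adjusted p = 2.19e-05). Cldn5, the claudin of endothelial tight junctions, had a WT mean of 2.68 ± 0.911 TPM (SD, n = 3), a Usp22-KOA mean of 0.371 ± 0.266 and a Usp22-KOB mean of 2.77 ± 0.564. It fell by 1.41 ± 0.23 (SE) on the log2(TPM + 1) scale in Usp22-KOA (limma adjusted p = 6.14e-04).

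Pecam1, Cd34 and Icam2 are also carried by leukocytes or their precursors. Pecam1, the adhesion molecule CD31, read 6.93, 5.73 and 10.5 TPM in the WT samples, 4.14, 3.85 and 1.26 in those of Usp22-KOA and 10.5, 11.3 and 6.61 in those of Usp22-KOB. All Usp22-KOA samples lay below WT, with a difference of -1.15 ± 0.34 (limma adjusted p = 0.0176). Without sample 3 of WT the difference was -0.93 and was no longer called (limma adjusted p = 0.0671).

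Cd34, a surface sialomucin of endothelium and blood progenitors, moved in opposite directions in the knockouts. It read 9.43, 8.05 and 11.2 TPM in the WT samples, 5.04, 5.02 and 2.65 in those of Usp22-KOA and 17.2, 18.3 and 12.5 in those of Usp22-KOB, with no overlap between groups. The difference from WT was -1.04 ± 0.22 in Usp22-KOA (limma adjusted p = 0.00331) and 0.68 ± 0.22 in Usp22-KOB (limma adjusted p = 0.0395). The second call was lost in 7 of 18 alternatives, among them without sample 1 or 2 of WT or sample 1 or 2 of Usp22-KOB, where adjusted p reached 0.130.

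Icam2, a ligand of leukocyte integrins, read 1.51, 1.96 and 0.684 TPM in the WT samples, 1.35, 1.80 and 0.620 in those of Usp22-KOA and 3.11, 3.81 and 1.61 in those of Usp22-KOB. WT and Usp22-KOA overlapped, with a difference of -0.08 ± 0.31 (limma adjusted p = 0.846). Usp22-KOB differed from WT by 0.68 ± 0.31 (limma adjusted p = 0.117), and without sample 3 of Usp22-KOB, its lowest, by 0.94 (limma adjusted p = 0.0410). With the sample number as a block in the fit, the difference of 0.68 was called (limma adjusted p = 0.00901), so the call depends on the fit. The pan-leukocyte gene Ptprc read 13.5, 20.4 and 11 TPM in the WT samples, 28.4, 22.7 and 14 in those of Usp22-KOA and 44.3, 42.4 and 20.9 in those of Usp22-KOB. Sample 3 was the lowest of each group for both genes. The summed leukocyte markers ran from 262.1 to 467.7 TPM for WT, 356.9 to 740.3 for Usp22-KOA and 674.9 to 1388 for Usp22-KOB, and their part in these levels was not tested.

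In the VEGF and angiopoietin system, 4 of 5 tested genes fell in Usp22-KOA against WT, beside 26.9% of all genes tested. Kdr, the main signalling receptor for VEGF-A (chr5:75932827-75978458), read 1.66, 1.26 and 2.93 TPM in the WT samples, 0.194, 0.342 and 0.118 in those of Usp22-KOA and 1.87, 1.70 and 1.34 in those of Usp22-KOB. Its Usp22-KOA mean was 11.2% of WT and its Usp22-KOB mean 83.9%. The difference was -1.24 ± 0.22 in Usp22-KOA (limma adjusted p = 0.00117) and -0.13 in Usp22-KOB (limma adjusted p = 0.685).

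Flt1, the second VEGF-A receptor (chr5:147561604-147726011), had a different pattern. It read 2.75, 2.47 and 3.53 TPM in the WT samples, 2.79, 3.28 and 3.13 in those of Usp22-KOA and 2.37, 2.26 and 1.95 in those of Usp22-KOB. Usp22-KOA overlapped WT, with a difference of 0.06 ± 0.14 (limma adjusted p = 0.717), and all Usp22-KOB samples lay below all others. That gap was -0.29 ± 0.14 against WT (limma adjusted p = 0.128) and 0.35 ± 0.14 for Usp22-KOA against Usp22-KOB (limma adjusted p = 0.0564), which was called in 4 of 17 alternatives. Compared per transcript length, the mean of Flt1 was above that of Kdr in all 3 groups, at 3.07 against 0.218 TPM in Usp22-KOA and 2.92 against 1.95 TPM in WT, where the samples of both genes overlapped.

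Tie1, the partner receptor of Tek, read 3.51, 2.69 and 4.02 TPM in the WT samples, 0.395, 0.358 and 0.170 in those of Usp22-KOA and 4.02, 2.60 and 2.81 in those of Usp22-KOB. It fell by 1.74 ± 0.18 in Usp22-KOA (limma adjusted p = 4.39e-05). Angpt2, a context-dependent antagonist ligand of Tek stored in endothelial granules, had a WT mean of 4.83 ± 0.739 TPM (SD, n = 3), a Usp22-KOA mean of 1.51 ± 0.247 and a Usp22-KOB mean of 5.05 ± 0.219. Tek, the angiopoietin receptor, was under the filter at 0.679, 0.575 and 0.641 TPM in the WT samples, 0.0782, 0.283 and 0.123 in those of Usp22-KOA and 0.782, 0.529 and 0.834 in those of Usp22-KOB, with all Usp22-KOA samples below the rest.

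Ptprb, the phosphatase VE-PTP that restrains Tek and VE-cadherin signalling (chr10:116275523-116389535), differed among all 3 groups. It read 11, 10.4 and 10.8 TPM in the WT samples, 6.48, 7.50 and 6.08 in those of Usp22-KOA and 16.4, 18.7 and 24.0 in those of Usp22-KOB, with no overlap. It fell in Usp22-KOA, with a difference of -0.61 ± 0.13 (limma adjusted p = 0.00352), and rose in Usp22-KOB, with 0.80 ± 0.13 (limma adjusted p = 0.00183). The Usp22-KOA mean was 62.3% of WT, so Ptprb fell less than 22 of the 23 genes called lower, which reached at most 44.2%.

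**Figure D2:**
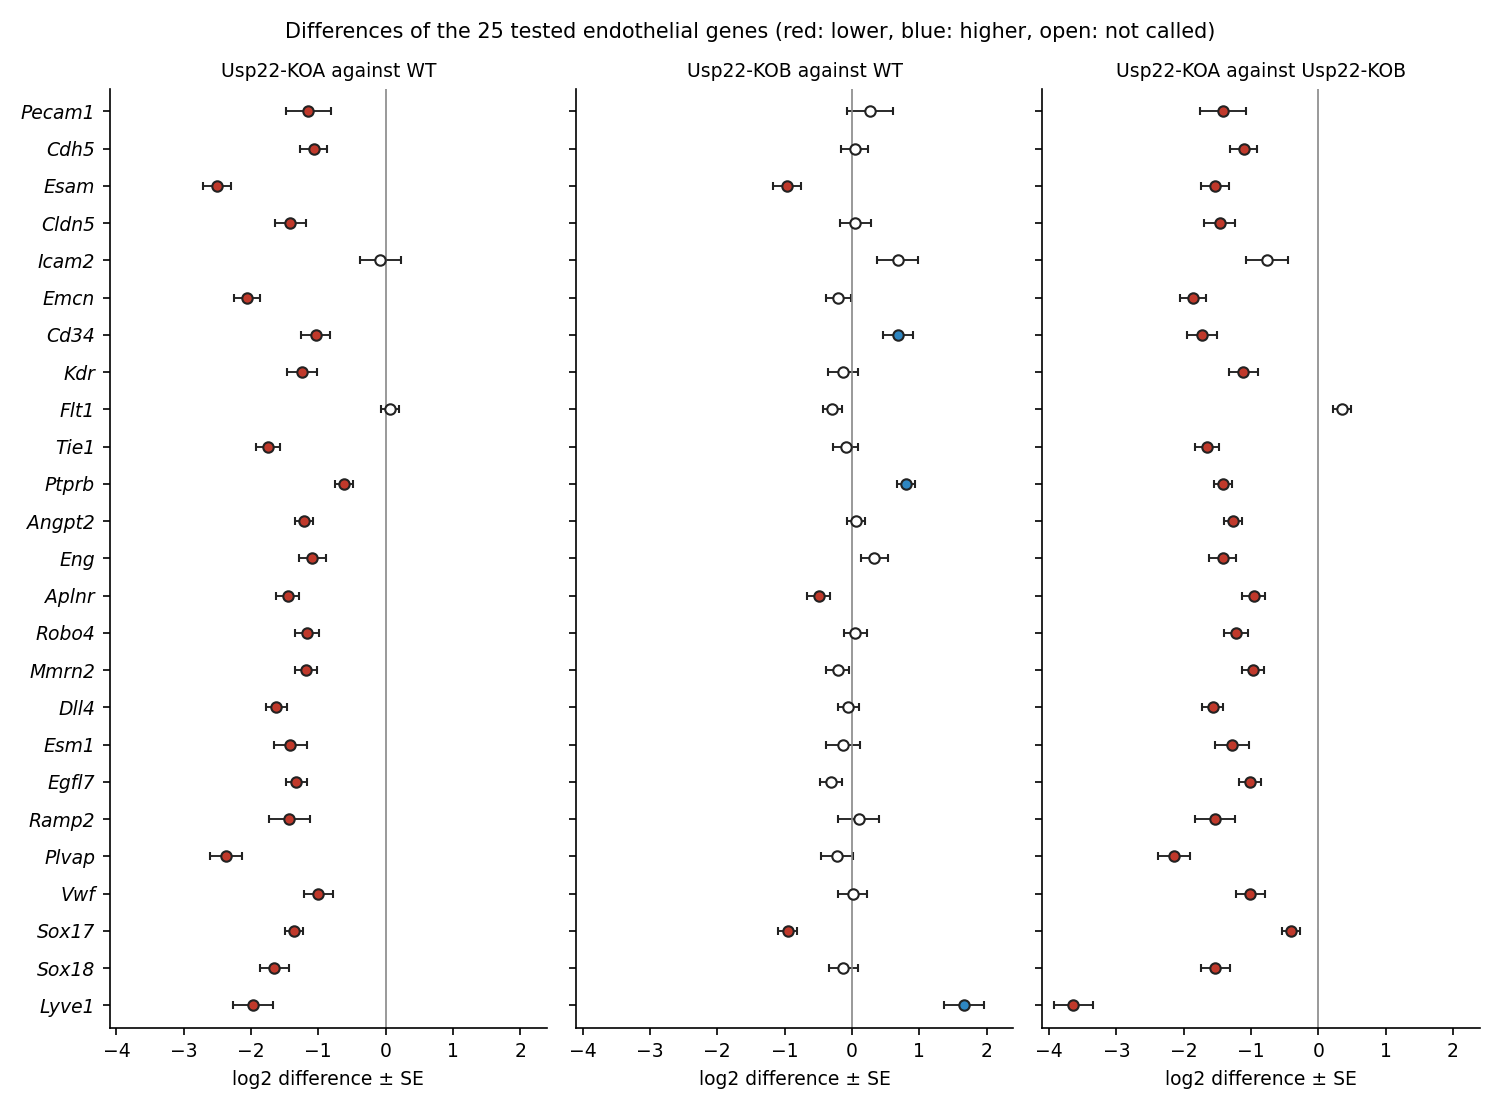
Difference in log2(TPM + 1) of each of the 25 tested endothelial genes, on the horizontal axes, for each knockout against WT and for the knockouts, A minus B, with bars of 1 standard error; red is called lower, blue called higher and open not called. Both comparisons of Usp22-KOA hold 23 genes called lower, and Lyve1, Ptprb and Cd34 are the genes called higher in Usp22-KOB.

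All 8 tested genes among the other receptors, ligands and matrix proteins fell in Usp22-KOA against WT, beside 26.9% of all genes. Dll4, the Notch ligand of tip cells and arteries (chr2:119325784-119335962), read 2.42, 2.30 and 3.01 TPM in the WT samples, 0.105, 0.254 and 0.111 in those of Usp22-KOA and 2.63, 2.75 and 1.96 in those of Usp22-KOB. Its Usp22-KOA mean was 6.09% of WT, the lowest share of the 31 genes, and its Usp22-KOB mean was 95.0%. The difference was -1.63 ± 0.16 in Usp22-KOA (limma adjusted p = 2.85e-05) and -0.06 in Usp22-KOB (limma adjusted p = 0.811).

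Esm1, a secreted proteoglycan of tip cells, had a WT mean of 2.53 ± 0.921 TPM (SD, n = 3), a Usp22-KOA mean of 0.295 ± 0.0833 and a Usp22-KOB mean of 2.22 ± 0.797. Robo4, a guidance receptor of stable vessels, was listed at 0.188, 0.158 and 0 TPM in Usp22-KOA against 1.43, 1.24 and 1.85 in WT and 1.50, 1.99 and 1.32 in Usp22-KOB. Both were called lower in Usp22-KOA (limma adjusted p = 0.00112 and 4.47e-04) and neither in Usp22-KOB (0.717 and 0.843). Both averaged under 1 TPM in Usp22-KOA and passed the filter through the other groups.

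Aplnr, the apelin receptor of growing veins and sprouts, read 3.15, 2.80 and 3.60 TPM in the WT samples, 0.662, 0.516 and 0.400 in those of Usp22-KOA and 2.35, 2.22 and 1.40 in those of Usp22-KOB. The 3 groups did not overlap. The difference from WT was -1.45 ± 0.17 in Usp22-KOA (limma adjusted p = 9.04e-05) and -0.49 ± 0.17 in Usp22-KOB (limma adjusted p = 0.0480). The second call was lost in 14 of 17 alternatives, 9 of which left out 1 sample of any group, with adjusted p up to 0.136.

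Eng, a co-receptor for BMP9 that macrophages can also express, had a WT mean of 8.33 ± 1.58 TPM (SD, n = 3), a Usp22-KOA mean of 3.39 ± 0.746 and a Usp22-KOB mean of 10.8 ± 2.58. Egfl7, a secreted matrix protein of sprouting vessels, averaged 16.3 ± 2.20, 5.90 ± 0.610 and 13.1 ± 3.14 TPM in the same order, and Mmrn2, a matrix protein that binds the Clec14a receptor, averaged 2.34 ± 0.569, 0.458 ± 0.0839 and 1.86 ± 0.286. For these 3 genes every Usp22-KOA sample lay below every WT sample, and WT overlapped Usp22-KOB. Ramp2, which makes the calcitonin receptor-like receptor respond to adrenomedullin, read 3.19, 3.16 and 6.11 TPM in the WT samples, 0.432, 1.13 and 1.06 in those of Usp22-KOA and 5.47, 5.57 and 2.59 in those of Usp22-KOB. Clec14a, a lectin-like receptor of tumor vessels, was under the filter, at 0.580, 0.298 and 0.412 TPM in WT and at most 0.118 in Usp22-KOA, with Usp22-KOB at 0.0922, 0.274 and 0.208.

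Of the secretory, barrier and nitric oxide genes, both tested genes fell in Usp22-KOA against WT, beside 26.9% of all genes tested. Plvap, which forms the diaphragms of fenestrated capillaries, was one of the most abundant at 17.5, 15.8 and 23.7 TPM in the WT samples, 3.29, 3.51 and 1.88 in those of Usp22-KOA and 19.4, 17.4 and 11.8 in those of Usp22-KOB. Its difference in Usp22-KOA was -2.37 ± 0.23 (limma adjusted p = 3.14e-05), and in Usp22-KOB it was -0.22 (limma adjusted p = 0.488). Vwf, the clotting factor stored in endothelial granules and in platelets, had a WT mean of 1.80 ± 0.537 TPM (SD, n = 3), a Usp22-KOA mean of 0.398 ± 0.231 and a Usp22-KOB mean of 1.81 ± 0.418. Nos3, the endothelial nitric oxide synthase, was under the filter at 1.22, 0.785 and 1.44 TPM in the WT samples, 0.109, 0.168 and 0.0456 in those of Usp22-KOA and 1.33, 1.40 and 1.04 in those of Usp22-KOB.

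Among the transcription factors, Sox17 and Sox18 of the SOXF family fell in Usp22-KOA. Sox17 (chr1:4490931-4497354), which some epithelia also express, read 12.7, 10.1 and 9.64 TPM in the WT samples, 3.91, 3.40 and 3.41 in those of Usp22-KOA and 4.15, 5.30 and 5.78 in those of Usp22-KOB. The 3 groups did not overlap, and both knockouts lay below WT, with differences of -1.36 ± 0.14 (limma adjusted p = 3.83e-05) and -0.96 ± 0.14 (limma adjusted p = 9.12e-04). The difference between the knockouts was -0.40 ± 0.14 (limma adjusted p = 0.0361), and it was lost in 10 of 18 alternatives, among them without WT sample 2, Usp22-KOA sample 2 or 3, or Usp22-KOB sample 2 or 3, with adjusted p up to 0.128. The epithelial gene Epcam was also low in both knockouts, at 379 ± 18.4 TPM (SD, n = 3) for WT, 37.7 ± 15.2 for Usp22-KOA and 31.3 ± 5.31 for Usp22-KOB, and the summed epithelial markers ran from 7886 to 8385, from 6257 to 7037 and from 6830 to 8349 TPM. Of the 8 epithelial markers, limma called 6 lower and 1 higher in Usp22-KOA against WT, with a median difference of -1.78. In Usp22-KOB it called 4 lower and 0 higher. Across all genes tested, 26.9% were lower and 29.4% higher in Usp22-KOA, and 18.4% lower and 18.7% higher in Usp22-KOB. The part of the epithelial markers in the level of Sox17 was not tested.

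Sox18 read 3.78, 2.30 and 4.18 TPM in the WT samples, 0.314, 0.426 and 0.396 in those of Usp22-KOA and 4.09, 2.57 and 2.46 in those of Usp22-KOB. Unlike for Sox17, its Usp22-KOB samples overlapped WT, with a difference of -0.13 (limma adjusted p = 0.680), against -1.65 ± 0.21 in Usp22-KOA (limma adjusted p = 1.66e-04). Erg, the ETS factor that maintains endothelial identity, was under the filter at 0.917, 0.912 and 1.43 TPM in the WT samples, 0.503, 0.456 and 0.428 in those of Usp22-KOA and 0.960, 0.795 and 0.979 in those of Usp22-KOB. The Usp22-KOA samples of Erg lay below all others.

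Tal1, a factor of blood and endothelial progenitors that mast cells, megakaryocytes and erythroid cells also use, went the other way. It read 0.156, 0.181 and 0.120 TPM in the WT samples, 1.87, 1.35 and 0.754 in those of Usp22-KOA and 0.358, 0.0683 and 0.382 in those of Usp22-KOB, and it was under the filter. All Usp22-KOA samples lay above all others. In the fit of all genes with no filter its difference from WT was 0.98 in Usp22-KOA (limma adjusted p = 0.00205) and 0.13 in Usp22-KOB (limma adjusted p = 0.642). All 9 mast cell markers were called higher in Usp22-KOA, Cpa3 standing at 0.834, 2.42 and 0.117 TPM in WT and at 330, 260 and 155 in Usp22-KOA, and the summed list ran from 151.9 to 186.4 TPM for WT, 1209 to 2509 for Usp22-KOA and 96.3 to 129.7 for Usp22-KOB. Most of the WT sum was Mcpt4, at a mean of 160.4 TPM against 55.9 in Usp22-KOB. In Usp22-KOB, limma called 4 of the 9 markers higher than WT, Cpa3 among them, and 1, Mcpt4, lower. Across all genes tested, 29.4% were called higher in Usp22-KOA, and 18.7% higher and 18.4% lower in Usp22-KOB. The order of the samples was the same for Tal1 and Cpa3 in WT and in Usp22-KOA. It differed in Usp22-KOB, where Cpa3 read 9.56, 7.80 and 6.16 TPM. The part of mast cell RNA in Tal1 was not tested.

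In that fit without a filter, 5 of the 6 genes left out were called in Usp22-KOA against WT. The share of all genes called in that fit is not given here, so the count is not read as a result about the 6. All 6 averaged under 1 TPM, where the precision is unknown. Tek differed by -0.49 (limma adjusted p = 0.00295), Erg by -0.50 (limma adjusted p = 0.00527), Clec14a by -0.41 (limma adjusted p = 0.00575) and Nos3 by -0.95 (limma adjusted p = 4.16e-04). None of the 6 was called in Usp22-KOB against WT, where Clec14a came nearest at -0.26 (limma adjusted p = 0.0648).

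Of the 2 lymphatic genes, only Lyve1 was tested. Lyve1, the hyaluronan receptor of lymphatic vessels that some tissue macrophages also carry (chr7:110850607-110863239), read 16.2, 24.0 and 22.4 TPM in the WT samples, 4.07, 6.33 and 3.47 in those of Usp22-KOA and 84.9, 85.8 and 42.1 in those of Usp22-KOB. No groups overlapped. The difference from WT was -1.97 ± 0.29 in Usp22-KOA (limma adjusted p = 4.00e-04) and 1.67 ± 0.29 in Usp22-KOB (limma adjusted p = 0.00251), and A minus B was -3.64 ± 0.29 (limma adjusted p = 1.6e-05).

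Prox1, the master transcription factor of lymphatic endothelium, was listed at 0, 0 and 0.105 TPM in WT, at 0.0433, 0 and 0 for Usp22-KOA and at 0.204, 0 and 0.115 in Usp22-KOB, at or near 0 in every library. The lymphatic chemokine Ccl21a was listed at 0 in all Usp22-KOA samples, at 1.10, 0.397 and 3.91 TPM in WT and at 4.31, 5.83 and 10.6 in Usp22-KOB. Flt4, the receptor for VEGF-C, had a WT mean of 1.08 ± 0.317 TPM (SD, n = 3), a Usp22-KOA mean of 0.111 ± 0.0389 and a Usp22-KOB mean of 0.713 ± 0.0357, with every Usp22-KOB sample below every WT sample. Of 7 lymphatic markers outside the 31, 3 were tested, and limma called 2 higher and 1 lower in Usp22-KOB against WT and 0 higher and 1 lower in Usp22-KOA. The 2 higher were Ccl21a and Pdpn, which many other cell types also express, and the lower was Sema3d. Across all genes tested, 18.7% were called higher and 18.4% lower in Usp22-KOB, and 29.4% higher and 26.9% lower in Usp22-KOA. The 7 summed to 10.4 to 17.6 TPM for WT, 6.26 to 16.6 for Usp22-KOA and 33.2 to 33.6 for Usp22-KOB, most of it Pdpn, with means of 8.18, 10.4 and 24.8 TPM.

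All 11 macrophage markers were called higher in Usp22-KOB against WT, beside 18.7% of all genes. In Usp22-KOA against WT 1 was called lower and 0 higher, beside 26.9% and 29.4% of all genes. The one that fell was Cd163, a scavenger receptor of tissue macrophages, at 26.7% of its WT mean (difference -1.71 ± 0.37, limma adjusted p = 0.00361), beside 22.2% for Lyve1. The macrophage receptor Csf1r read 42.9, 65.8 and 38.9 TPM in the WT samples, 51.5, 40.8 and 23.8 in those of Usp22-KOA and 202, 197 and 105 in those of Usp22-KOB. The summed list ran from 1923 to 3060 TPM for WT, 1207 to 3036 for Usp22-KOA and 5435 to 9696 for Usp22-KOB. In Usp22-KOB, sample 3 was the lowest for Lyve1 and for Csf1r, as it was for 21 of the 31 endothelial genes. In WT the lowest was sample 1 for Lyve1 and sample 3 for Csf1r. The part of macrophage RNA in Lyve1 was not tested.

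Mural cells, the pericytes and smooth muscle cells that wrap vessels, had low markers in the same Usp22-KOA samples. Their 13 markers summed to 63.9 to 76.2 TPM for WT, 12.7 to 13.3 for Usp22-KOA and 40.4 to 57.8 for Usp22-KOB. Of the 7 tested, 6 were called lower in Usp22-KOA against WT and 3 in Usp22-KOB, beside 26.9% and 18.4% of all genes. Rgs5, a pericyte marker, read 11.7, 8.02 and 8.02 TPM in the WT samples, 0.591, 0.423 and 1.08 in those of Usp22-KOA and 2.58, 2.22 and 2.51 in those of Usp22-KOB, low in both knockouts. Pdgfrb, the receptor that recruits pericytes, had a WT mean of 4.58 ± 0.684 TPM (SD, n = 3), a Usp22-KOA mean of 0.841 ± 0.381 and a Usp22-KOB mean of 5.92 ± 1.0. Of the mural markers tested, Cspg4, at 2.93, 3.01 and 3.35 TPM on average in the 3 groups, was not called in either comparison with WT.

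Fibroblast markers were also lower in Usp22-KOA, 6 of 9 being called lower and 1 higher, and 4 were called higher in Usp22-KOB. Across all genes tested, 26.9% were called lower and 29.4% higher in Usp22-KOA, and 18.7% higher in Usp22-KOB. The fibroblast sums ran from 507.3 to 926.4 TPM for WT, 246.6 to 304.8 for Usp22-KOA and 808.6 to 1253 for Usp22-KOB. Most of the Usp22-KOA sum was Col3a1, at a mean of 165.2 TPM against 178.1 in WT and not called. Col1a1 and Col1a2 stood at 7.09% and 4.38% of WT in Usp22-KOA. Dpt, the 1 called higher there, averaged 68.9 TPM against 5.52 in WT. Megakaryocyte and platelet markers summed to 183.5 to 211.8, 144.3 to 324.2 and 295.2 to 549.1 TPM, nearly all of it Pf4, with means of 190.3, 241.2 and 425.0 TPM. Of the 3 tested, Itga2b alone was called higher in Usp22-KOA against WT, and Pf4 and Ppbp in Usp22-KOB. The part of these cell types in the endothelial levels was not tested.

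**Figure D3:**
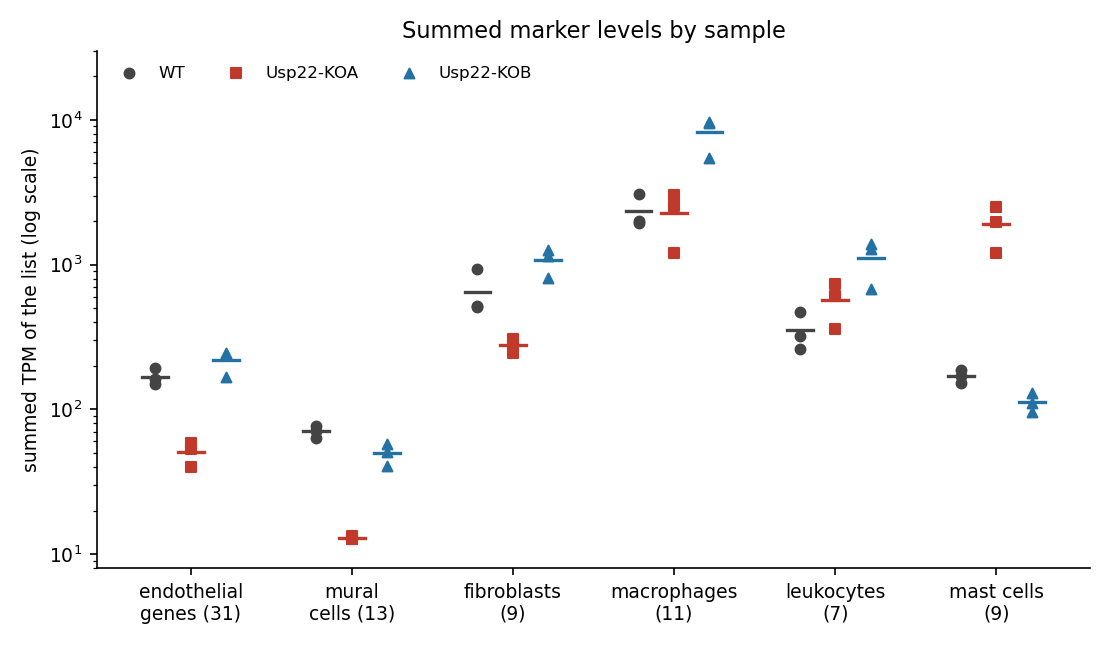
Summed TPM of the 31 endothelial genes and of marker lists for other cell types in each sample, on a log axis; symbols are single samples of WT, Usp22-KOA and Usp22-KOB, and short bars are group means (n = 3). Endothelial sums lie between 39.9 and 58.8 TPM in Usp22-KOA and at 150.0 TPM or more in WT and Usp22-KOB, while mast cell sums are highest in Usp22-KOA and macrophage sums in Usp22-KOB.

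Ligands that act on vessels were read from a list of 21 genes, 19 of which were tested. In Usp22-KOA against WT, 12 fell and 4 rose, with a median difference of -0.64, and in Usp22-KOB 4 fell and 8 rose, with a median of 0.18. Among all genes tested, 26.9% fell and 29.4% rose in Usp22-KOA, and 18.4% fell and 18.7% rose in Usp22-KOB. Vegfa, the ligand of Kdr and Flt1, read 245, 211 and 230 TPM in the WT samples, 85.9, 84.9 and 97.4 in those of Usp22-KOA and 106, 117 and 130 in those of Usp22-KOB. No groups overlapped, and both knockouts lay below WT, with differences of -1.35 ± 0.09 (limma adjusted p = 3.13e-06) and -0.96 ± 0.09 (limma adjusted p = 8.98e-05). The difference between the knockouts was -0.39 ± 0.09 (limma adjusted p = 0.00629). In Usp22-KOB, Vegfa was called lower while the values of Kdr overlapped WT.

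The other named ligands separated the knockouts more. Pdgfb, which endothelial cells secrete to draw in pericytes, read 37.7, 38.2 and 34.8 TPM in the WT samples, 6.70, 6.01 and 7.51 in those of Usp22-KOA and 32.4, 33.3 and 34.6 in those of Usp22-KOB. It fell by 2.30 ± 0.08 in Usp22-KOA (limma adjusted p = 1.23e-07) and was not called in Usp22-KOB (difference -0.14, limma adjusted p = 0.219). Pgf, a ligand of Flt1 but not of Kdr, read 10.8, 8.31 and 9.43 TPM in the WT samples, 0.428, 0.990 and 0.270 in those of Usp22-KOA and 6.05, 5.97 and 6.49 in those of Usp22-KOB, and its call in Usp22-KOB (difference -0.55, limma adjusted p = 0.0345) was lost in 8 of 18 alternatives. Adm, the adrenomedullin that signals through the partner of Ramp2, read 26.7, 23.5 and 22.4 TPM in the WT samples, 0.306, 0.892 and 0.534 in those of Usp22-KOA and 8.03, 9.49 and 4.79 in those of Usp22-KOB. It fell in both knockouts, by 4.01 ± 0.22 and 1.62 ± 0.22 (limma adjusted p = 9.81e-07 and 6.89e-04).

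Endothelial receptors and signalling genes outside the 31 went both ways in Usp22-KOA. Of 29 listed genes, 23 were tested, and 10 rose and 6 fell in Usp22-KOA against WT, with a median difference of 0.18, while 10 rose and 3 fell in Usp22-KOB. Over all genes tested, 29.4% rose and 26.9% fell in Usp22-KOA, and 18.7% rose and 18.4% fell in Usp22-KOB. The number of listed genes that fell in Usp22-KOA stood near that share. Over all 29, the low ones included, the median in Usp22-KOA was -0.16. Of these, 14 genes lay wholly below WT and 11 wholly above, beside 22.7% and 20.9% of all genes. Ecscr, an endothelial surface regulator, read 75.2, 78.9 and 76.8 TPM in the WT samples, 186, 185 and 176 in those of Usp22-KOA and 105, 111 and 112 in those of Usp22-KOB, above the mean of each of the 31 genes in WT. It rose in both knockouts, by 1.23 ± 0.05 and 0.50 ± 0.05 (limma adjusted p = 1.57e-07 and 8.40e-05).

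Ephb4, a receptor of veins that epithelia also express, had a WT mean of 64.8 ± 2.55 TPM (SD, n = 3), a Usp22-KOA mean of 108 ± 0.950 and a Usp22-KOB mean of 55.1 ± 5.62. It rose by 0.73 ± 0.07 in Usp22-KOA (limma adjusted p = 2.97e-05), and its call as lower in Usp22-KOB (difference -0.23, limma adjusted p = 0.0312) was lost in 7 of 18 alternatives. Nrp2, a co-receptor for VEGF-C and semaphorins, averaged 25.9, 18.5 and 46.8 TPM in WT, Usp22-KOA and Usp22-KOB, lower in the first knockout and higher in the second (limma adjusted p = 8.69e-04 and 9.30e-05). Ramp3, the relative of Ramp2, was low in the other knockout, at 36.2, 36.2 and 34.3 TPM in the WT samples, 31.2, 33.9 and 22.7 in those of Usp22-KOA and 5.43, 2.51 and 3.23 in those of Usp22-KOB. It fell by 3.0 ± 0.22 in Usp22-KOB (limma adjusted p = 1.90e-05).

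Of 22 endothelial transcription factors outside the 31, 14 were tested, and 3 rose and 2 fell in Usp22-KOA while 6 rose and 3 fell in Usp22-KOB. Of all genes tested, 29.4% rose and 26.9% fell in Usp22-KOA, and 18.7% rose and 18.4% fell in Usp22-KOB. Neither count in Usp22-KOA exceeded the share of all genes. Over all 22, 10 had every Usp22-KOA value below WT and 4 had every value above, beside 22.7% and 20.9% of all genes. Hhex, a homeobox factor of endothelium, liver and pancreas, read 44.3, 52.2 and 40.8 TPM in the WT samples, 5.25, 5.48 and 4.54 in those of Usp22-KOA and 31.3, 29.0 and 35.9 in those of Usp22-KOB, and it fell by 2.94 ± 0.11 in Usp22-KOA (limma adjusted p = 1.78e-07) and by 0.50 ± 0.11 in Usp22-KOB (limma adjusted p = 0.00925). Klf2 and Klf4, which respond to flow in endothelium and are used by many other cells, rose in both knockouts. Klf4 averaged 46.1, 119 and 89.6 TPM and Klf2 averaged 32.9, 63.6 and 88.0 TPM in WT, Usp22-KOA and Usp22-KOB. Klf2 stood lower in Usp22-KOA than Usp22-KOB at a limma adjusted p of 0.0496, a call that 11 of 18 alternatives lost. Gata2, which also stands in the mast cell list, averaged 0.294, 9.41 and 0.653 TPM and rose in Usp22-KOA by 2.97 ± 0.21 (limma adjusted p = 4.12e-06).

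Of 7 listed leukocyte adhesion genes of activated endothelium, 3 were tested, and all 3 rose in Usp22-KOA and 2 rose in Usp22-KOB. The shares of all genes tested that rose were 29.4% and 18.7%. Over the 7, values overlapped WT for 3 in Usp22-KOA and for 5 in Usp22-KOB. The others lay wholly above WT, as did 20.9% and 15.7% of all genes. Selp, the P-selectin of endothelial granules and platelets, read 0.476, 0.527 and 0.792 TPM in the WT samples, 35.7, 47.3 and 20.6 in those of Usp22-KOA and 4.41, 6.63 and 5.79 in those of Usp22-KOB. The groups did not overlap, and Selp rose by 4.40 ± 0.27 and 2.04 ± 0.27 (limma adjusted p = 1.69e-06 and 5.44e-04), while Vwf, stored in the same granules, was at 22.2% of WT in Usp22-KOA. Icam1 and Vcam1, integrin ligands that other cell types also make, averaged 77.7, 136 and 86.8 TPM and 147, 192 and 199 TPM in WT, Usp22-KOA and Usp22-KOB. Sele, the selectin most particular to endothelium, was under the filter, at 0, 0.0301 and 0.129 TPM in the WT samples, 0.572, 0.891 and 0.467 in those of Usp22-KOA and 0.0898, 0.240 and 0.0675 in those of Usp22-KOB.

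**Figure D4:**
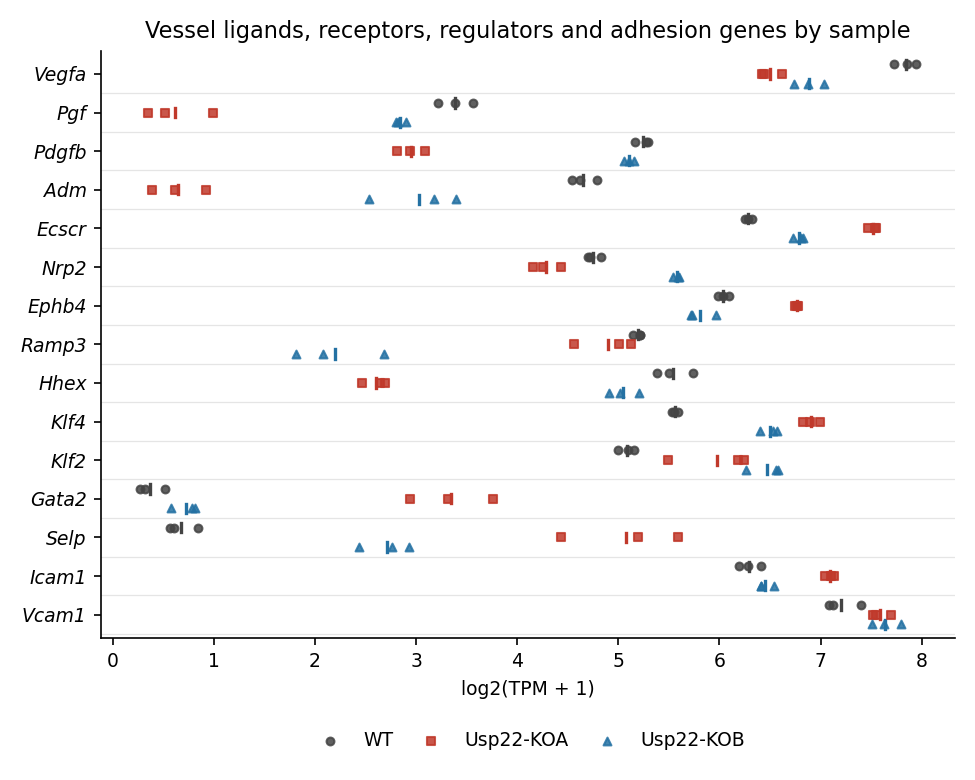
Level of 15 vessel ligands, receptors, transcription factors and adhesion genes outside the 31, as log2(TPM + 1) on the horizontal axis, in each sample; short bars are group means (n = 3). Pdgfb, Pgf, Adm and Hhex are far to the left in Usp22-KOA, Ramp3 in Usp22-KOB, and Selp and Gata2 lie far to the right in Usp22-KOA.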

How the data were processed

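Polyadenylated RNA of 9 samples, 3 in each of 3 groups, was sequenced. The authors deposited 1 table of TPM, a length-scaled estimate that sums to 1000000 in a library. Salmon, DESeq2 and mm10 are named per the submitters' processing notes, with roles and versions not given in the sources used here. TPM keeps no depth, so the depth is unknown and no counting interval or floor is given. The values were taken as log2(TPM + 1), with a pseudocount of 1, in Python 3.11.15. Genes that averaged 1 TPM or more over all 9 samples were fitted in R 4.3.3 with limma 3.58.1 (lmFit, contrasts.fit, then eBayes with its trend option), 1 mean for each group and no replicate block. Calls needed an adjusted p (Benjamini-Hochberg) under 0.05 over the 13843 genes tested. The fit was tested on simulated data. Other pseudocounts, filters, scalings and fits, and leaving out each sample, were tried as alternatives. Motifs were searched in RefSeq promoters of GRCm38.p6, and gene positions are from GENCODE on GRCm38. The text names Usp22, each of the 31 endothelial genes, up to 4 genes of each list of related vessel genes by smallest adjusted p, and the markers that give a cell type's level. The endothelial genes and lists were chosen with earlier results of these data known.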

Additional observations from a re-analysis of the deposited data

Results flagged for a closer look

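By the limma test of Usp22-KOA against Usp22-KOB itself, the level differed between the groups for 23 of the 25 endothelial genes tested. Among all genes tested, 24.2% were called lower and 27.5% higher in that comparison. Of the 25, 12 averaged under 1 TPM in Usp22-KOA and passed the filter through the other groups. The difference was negative for each of the 23, on the log2(TPM + 1) scale with 3 samples a group. Lyve1 differed by -3.64 and Plvap by -2.15. Among junction and adhesion genes, Emcn differed by -1.86, Cd34 by -1.72, Esam by -1.54, Cldn5 by -1.47, Pecam1 by -1.42 and Cdh5 by -1.11. In the VEGF and angiopoietin system, Tie1 differed by -1.65, Ptprb by -1.42, Angpt2 by -1.27 and Kdr by -1.11. Among the other receptors, ligands and matrix genes, Dll4 differed by -1.57, Ramp2 by -1.53, Eng by -1.42, Esm1 by -1.28, Robo4 by -1.22, Egfl7 by -1.02, Mmrn2 by -0.97 and Aplnr by -0.96. Sox18 differed by -1.53, Vwf by -1.01 and Sox17 by -0.40.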

How the results depend on the processing

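The count of endothelial genes called was 22 to 28 for Usp22-KOA against WT and 4 to 6 for Usp22-KOB against WT in all alternatives but a filter at a mean of 5 TPM, which left 10 genes to test. It called 10 of the 10 in Usp22-KOA against WT, 5 in Usp22-KOB and 10 in Usp22-KOA against Usp22-KOB, where the other alternatives gave 22 to 26. The highest counts, 28 and 26, came from the fit with no filter, which tested all 31 genes. The share of all genes called in each alternative is not given, so these counts are not read against it. Leaving out 1 sample gave 22 to 23, 4 to 6 and 22 to 24 calls in the 3 comparisons. With the replicate block the counts were 23, 6 and 23. Same-numbered samples deviated together weakly at most: their deviations correlated between -0.12 and 0.28, 2 of 9 above 0.1, and 5 of 9 samples correlated best with their own number. Between the knockouts same-numbered samples correlated at 0.19, 0.08 and 0.28, and unlike numbers between -0.23 and 0.10. Some pairing of the knockout samples is therefore not excluded. The main fit did not read the numbers as pairs, and the replicate block was kept as an alternative.

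Changes of sign were seen only for differences that were not called. With quantile normalization Icam2 in Usp22-KOA moved to 0.24 and Dll4 in Usp22-KOB to 0.033. Leaving out 1 sample gave differences from WT in Usp22-KOB of -0.086 to 0.20 for Cdh5, -0.30 to 0.10 for Kdr, -0.24 to 0.0072 for Tie1, -0.13 to 0.15 for Vwf, -0.11 to 0.24 for Cldn5, -0.052 to 0.15 for Robo4, -0.050 to 0.39 for Ramp2, -0.32 to 0.0027 for Sox18, -0.36 to 0.080 for Esm1, -0.051 to 0.12 for Angpt2 and -0.12 to 0.051 for Dll4. In Usp22-KOA it gave -0.019 to 0.17 for Flt1 and -0.31 to 0.14 for Icam2. Calls gained beyond those in the text included Egfl7 lower in Usp22-KOB without its sample 1 (-0.48). With the replicate block Icam2 was called against WT in Usp22-KOB (limma adjusted p = 0.00901) and for A minus B (0.00373), the second also without Usp22-KOB sample 3 (-1.01). With no filter, Tek, Erg, Tal1 and Nos3 were called for A minus B (-0.56, -0.39, 0.85 and -1.03). The cause was not tested. TPM holds no depth, which leaves the precision of genes under 1 TPM unknown.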

Other observations

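Endothelial genes were also read relative to a core of Pecam1, Cdh5, Tie1, Egfl7 and Clec14a, by subtracting the core's mean log2(TPM + 1) in the same sample, with no test. The core mean was 2.55 ± 0.217 (SD, n = 3) for WT, 1.41 ± 0.222 for Usp22-KOA and 2.48 ± 0.192 for Usp22-KOB. Relative to it, Esam moved by -1.37, Plvap by -1.23 and Emcn by -0.92 from WT to Usp22-KOA, while Tal1 moved by 2.12, Flt1 by 1.20, Prox1 by 1.11 and Icam2 by 1.06. Flt1, Prox1 and Icam2 themselves differed from WT by only 0.06, -0.03 and -0.08, so their relative moves reflect the fall of the core. The core genes are themselves part of the endothelial set and did not move evenly, Clec14a by 0.73 and Tie1 by -0.60. From WT to Usp22-KOB, Lyve1 moved by 1.74, Ptprb by 0.87, Cd34 by 0.75, Esam by -0.90 and Sox17 by -0.89. The pseudocount compresses the change of genes near 0, which affects the low genes of Usp22-KOA most.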
